A study of Danio rerio with 10 samples.

Results

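At the dome stage of the zebrafish (Danio rerio), RNA of the nuclear fraction was set against RNA of the cytosolic fraction. Dome is a blastula stage at which the embryo's cells begin to spread over the yolk. The transcripts described had 10 or more counts in at least 1 of the dome libraries, and 9137 of the 16383 transcripts in the deposited table met this rule. They were split by their level before dome, taken as the mean CPM (a transcript's counts divided by the column total, times 1000000) over the 6 libraries of the 64-cell, 256-cell and 1000-cell stages. Of the 9137, 1871 were under 1 CPM and are called new, 2589 lay from 1 to 10 CPM and are called middle, and 4677 were over 10 CPM and are called maternal.

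Both dome libraries came from pooled wild-type embryos of the AB strain, freed of their chorions with a protease and then lysed in RLN buffer. The spun-down and washed pellet was the nuclear fraction and the supernatant was the cytosolic fraction, per the labels' protocols. All groups used here were made in this way and none carried a mutation or a drug. Whole embryos were lysed, so embryonic cells, the outer layer and the nuclei of the yolk are not separated. Besides dome and the earlier stages, the study sampled shield, an early gastrula stage. Each fraction of each of the 5 stages had 1 library, so no difference between the fractions at dome alone could be tested and no value has a replicate error.

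A zebrafish egg is laid with a large store of maternal RNA made in the ovary, and the embryo's first cell divisions run on that store. The embryo starts to transcribe its own genome broadly in the blastula, while many maternal RNAs are degraded. A newly made RNA starts in the nucleus, where it is spliced and from which it is exported, whereas a stored maternal RNA has been in the cytoplasm since before fertilization. The early libraries therefore give a way to set new against maternal RNA that does not use the dome libraries.

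The nuclear dome library held 13285467 counts and the cytosolic dome library 11590909, and the 8 other libraries held 5909037 to 14311969. A floor of 3 counts was 0.226 CPM in the nuclear and 0.259 CPM in the cytosolic dome library. The TMM scaling factors of the dome libraries were nearly equal, and scaling by library totals in their place shifted the dome ratio by -0.0039 on the log2 scale. At shield that shift was 0.48, which touches the shield values below. Transcripts are given by Ensembl transcript ID, because 0 of the 16383 IDs could be paired with a gene name. Markers of nuclei, of cytosol or of any cell type could therefore not be looked up, and the fraction labels were not checked against them.

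New transcripts lay on the nuclear side at dome. Their median log2 ratio of nuclear to cytosolic level was 1.34, a 2.53-fold higher share of the nuclear than of the cytosolic library, and the middle 50% of them lay between 0.40 and 2.35. Maternal transcripts were centred near equal shares, with a median of -0.06 and a middle 50% from -0.27 to 0.19. They held 96.0% of the nuclear and 97.7% of the cytosolic dome counts, so the scaling itself largely sets their centre near 0. Their median therefore does not measure an even division of maternal RNA between the fractions. The middle class lay between, with a median of 0.28 and a middle 50% from -0.33 to 1.02. Over all 9137 transcripts the median was 0.09. The new median exceeded the maternal one by 1.40, and the middle median exceeded it by 0.34. Because each library was scaled to its own counts, the ratio compares shares of counts, and the fraction of a transcript's molecules found in the nucleus cannot be read from it. In such bulk samples, fewer cells of a type and less RNA per cell cannot be told apart.

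Past a 2-fold difference, 2035 transcripts (22.3% of the 9137) lay on the nuclear side and 567 (6.21%) on the cytosolic side. In the new class 1117 (59.7%) were 2-fold or more nuclear, 153 (8.18%) were 2-fold or more cytosolic and 601 lay within 2-fold. In the middle class the numbers were 668 (25.8%) nuclear and 246 (9.50%) cytosolic. In the maternal class they were 250 (5.35%) nuclear and 168 (3.59%) cytosolic, and 4259 (91.1%) lay within 2-fold. The nuclear share was thus well above the background of all transcripts in the new class, near it in the middle class and below it in the maternal class. The cytosolic share of the new class was close to the background. With a 4-fold limit, 637 new transcripts (34.0%) were nuclear and 87 (4.65%) cytosolic, against 10.7% and 2.89% of all 9137.

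**Figure D1:**
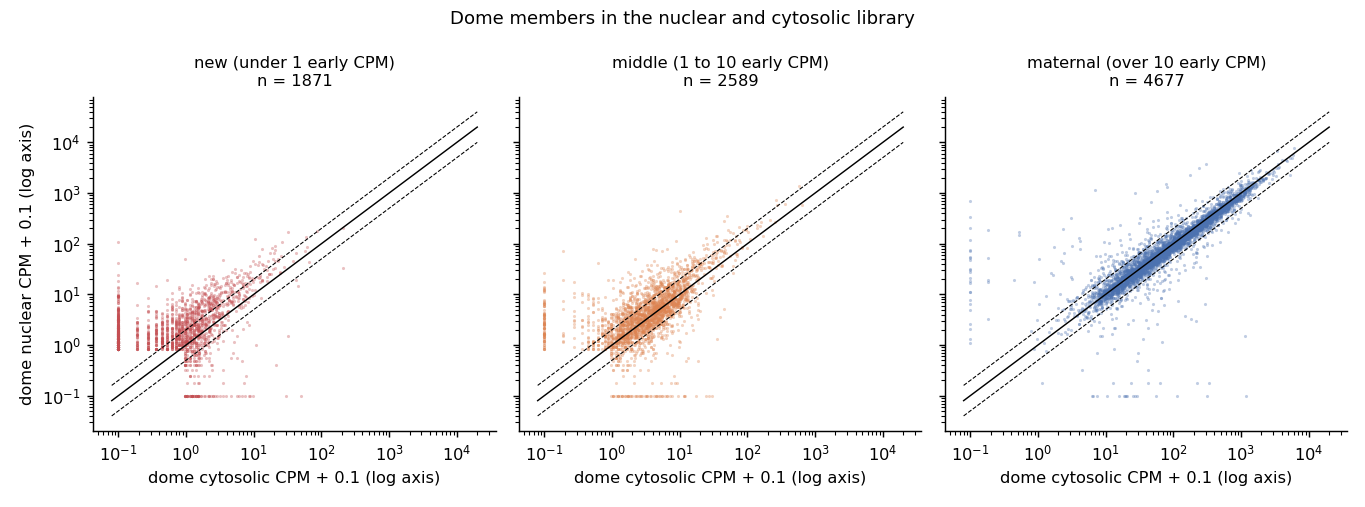
Each point is 1 dome transcript, with its nuclear CPM (vertical, log axis) against its cytosolic CPM (horizontal, log axis) and 0.1 CPM added to both so that transcripts at 0 can be drawn; the solid line marks equality and the dashed lines a 2-fold difference. The 1871 new transcripts lie mostly above the line, the 2589 middle ones spread around it and most of the 4677 maternal ones lie along it.

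The minimum of 10 counts bears on the size of the new class's shift. Of the 1871 new transcripts, 798 had 10 or more counts in both dome libraries, 901 reached 10 in the nuclear library alone and 172 in the cytosolic library alone. The last groups were kept through the library in which they were higher. Asking for 10 or more counts in both libraries drops these groups, and so cuts off large ratios at low counts in either direction. Among the 798 counted well in both, the median log2 ratio was 0.85 (a 1.80-fold higher nuclear share), with 353 (44.2%) nuclear and 18 (2.26%) cytosolic transcripts past 2-fold. The background under that filter was 13.7% nuclear and 3.75% cytosolic of 7598 transcripts, with a median of 0.02. The maternal median under the same filter was -0.06, and the middle median was 0.24.

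The new class lay on the nuclear side at each depth of counting. Summed over both dome libraries, 1203 new transcripts had 10 to under 50 counts, and their median log2 ratio was 1.24. For the 510 with 50 to under 200 counts the median was 1.50, with 66.3% nuclear and 4.51% cytosolic past 2-fold. For the 138 with 200 to under 1000 counts it was 1.46, with 92 (66.7%) nuclear and 6 (4.35%) cytosolic past 2-fold. At that depth 39.6% of middle and 7.39% of maternal transcripts were 2-fold or more nuclear, and 5.30% and 5.00% cytosolic. The 20 new transcripts with 1000 or more counts also had a median of 1.46. Of them 13 (65.0%) were 2-fold or more nuclear and 1 (5.00%) was 2-fold or more cytosolic. With 1000 or more counts, 46.0% of middle and 3.82% of maternal transcripts were 2-fold or more nuclear, and 1.15% and 2.47% cytosolic. The medians of the better counted new transcripts were thus no lower than that of the poorly counted ones.

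Over all 9137 transcripts, 504 had 0 cytosolic counts and 135 had 0 nuclear counts at dome. In the new class 389 had 0 cytosolic counts, with 10 to 1433 nuclear counts, and 64 had 0 nuclear counts, with 10 to 571 cytosolic counts. In the maternal class 24 had 0 cytosolic and 16 had 0 nuclear counts. Each of these was kept through the library in which it was high, so the numbers describe the members and are no support for the shift.

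By counts rather than by transcripts, the new class was a small part of either library and a larger part of the nuclear one. New transcripts held 0.912% of the counts of the nuclear dome library (95% Wilson interval 0.907 to 0.917%) and 0.410% of the cytosolic one (0.406 to 0.414%). These intervals cover counting error only, since each fraction had 1 library. They take each count as separate, although PCR copies cannot be told from separate molecules, and so may be too narrow. The nuclear share was 2.23 times the cytosolic share. Middle transcripts held 3.00% of the nuclear and 1.86% of the cytosolic counts, 1.62 times as much. Maternal transcripts held 96.0% of the nuclear and 97.7% of the cytosolic counts. RNA made at dome from transcripts already present early is counted in the middle and maternal classes, so these are shares of classes and not of newly made or maternal molecules. With other ways of setting the classes, the share of the new class ran from 0.455 to 1.58% nuclear and 0.187 to 0.833% cytosolic, and that of the middle class from 1.96 to 4.60% nuclear and 1.16 to 3.08% cytosolic.

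The same 1871 new transcripts held 0.0496% of the nuclear and 0.0502% of the cytosolic counts at 64-cell, 0.0644% and 0.0478% at 256-cell, and 0.0883% and 0.0540% at 1000-cell. The early libraries chose the class, so their low level is part of the choice, but their split between fractions was not. The nuclear share was 0.988, 1.35 and 1.63 times the cytosolic share at these stages in order, 2.23 times at dome and 2.08 times at shield. These compare pooled counts. Medians over new transcripts with 10 or more counts in a library of the stage differed from them at the early stages. The median log2 ratio was -0.37 at 64-cell (358 transcripts), -0.04 at 256-cell (257) and 0.36 at 1000-cell (403). Under the class limit of 1 mean early CPM, many of these transcripts entered through the library in which they were higher. The cytosolic library of each early stage held more counts than the nuclear one, so 10 counts were a lower CPM there. The side on which these early medians lie therefore cannot be judged. At shield, which took no part in the choice, new transcripts held 3.97% of the nuclear and 1.91% of the cytosolic counts. Their share was thus more than 4 times the dome share in either fraction.

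**Figure D2:**
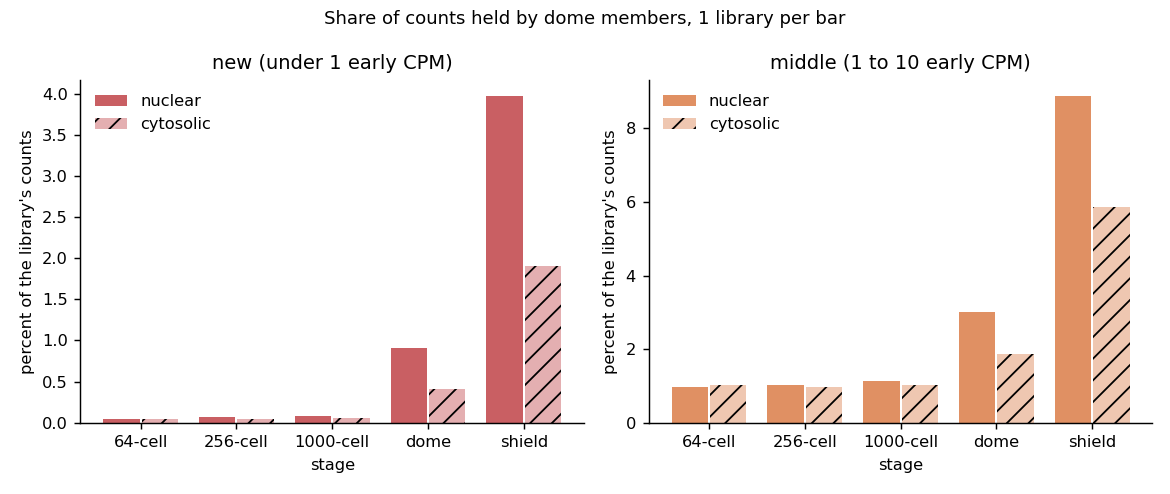
Bars give the percent of each library's counts held by the new (left panel) and middle (right panel) dome transcripts at 5 stages, with the nuclear library left of the cytosolic one and 1 library per bar. New transcripts held 0.912% of nuclear and 0.410% of cytosolic counts at dome, and 3.97% and 1.91% at shield.

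The counts of the new class were not carried by a few transcripts. In the nuclear dome library 135 new transcripts held 50% of the class's counts, and in the cytosolic one 90 did. The 10 highest in each library held 14.0% of the class's nuclear and 21.4% of its cytosolic counts. The same shares were 18.4% and 16.6% in the middle class and 5.26% and 5.00% in the maternal class. The 10 with the most counts over both dome libraries held a mixture of patterns, and 8 of them had a log2 ratio above 0. The most counted had 2733 nuclear and 2406 cytosolic counts, a log2 ratio of -0.01, with 2 counts in all 6 early libraries together. The next had 2390 nuclear and 980 cytosolic counts (log2 ratio 1.09). The third went the other way, with 448 nuclear and 2393 cytosolic counts (log2 ratio -2.60). The fourth had 2252 nuclear and 376 cytosolic counts (log2 ratio 2.38). New transcripts with many counts thus ranged from equal shares of both libraries to a much higher share of either one. Of these 10, 6 were 2-fold or more nuclear against 1 cytosolic.

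The dome ratio was lower at each step of the level before dome. The 443 dome transcripts with 0 counts in all early libraries had a median log2 ratio of 1.95. It was 1.60 for 238 transcripts with a mean early level up to 0.1 CPM, 1.43 for 395 from 0.1 to 0.3 CPM and 0.98 for 795 from 0.3 to 1 CPM. In the middle class it was 0.35 for 1207 transcripts from 1 to 3 CPM and 0.23 for 1382 from 3 to 10 CPM. Maternal transcripts of 10 to 30 CPM had a median of 0.05, those of 30 to 100 CPM -0.04, those of 100 to 300 CPM -0.09 and those over 300 CPM -0.12. Among transcripts with 10 or more counts in both dome libraries, the steps within the new class were no longer ordered. There the medians were 0.83, 0.83, 1.23 and 0.71 from the lowest to the highest early level. From the middle class upward they kept their order, from 0.28 at 1 to 3 CPM to -0.12 over 300 CPM. This filter cuts off large ratios at low counts, so the steps within the new class cannot be judged from it.

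**Figure D3:**
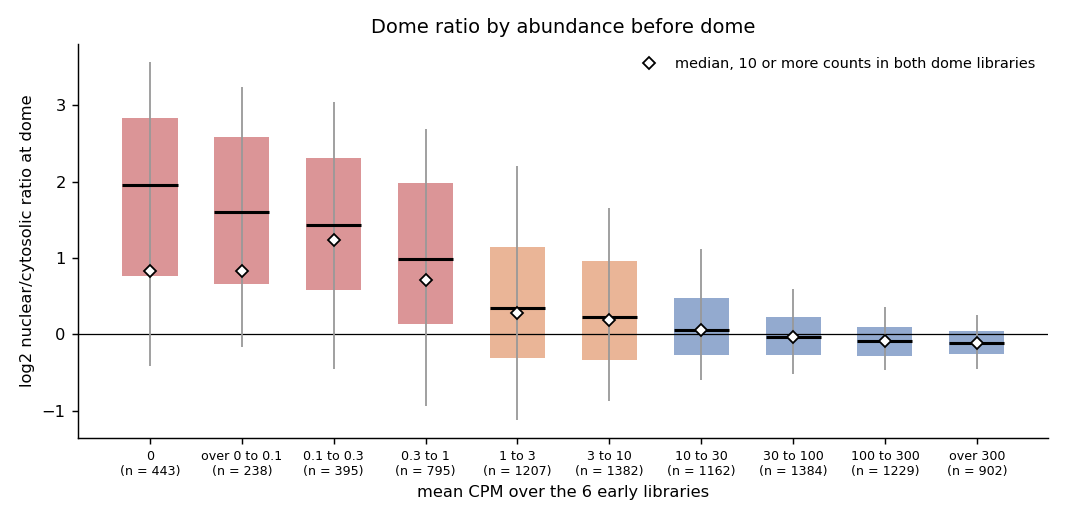
Log2 nuclear/cytosolic ratio at dome (vertical) by mean CPM over the 6 early libraries (horizontal), with boxes for the middle 50% of transcripts, black bars for medians, grey lines from the 10th to the 90th percentile and diamonds for the median of transcripts with 10 or more counts in both dome libraries. The medians run from 1.95 at 0 early CPM to -0.12 over 300 CPM.

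Transcripts at the limits of the classes had similar ratios on both sides. Just inside the new class, 105 transcripts of 0.9 to under 1 early CPM had a median log2 ratio of 0.60, and 75 of 1 to under 1.1 CPM, just outside it, had 0.49. At the limit of 10 CPM, the medians were 0.19 for 111 transcripts just above it and 0.13 for 115 just below it. At the minimum count, 193 new transcripts whose higher dome count was 10 or 11 had a median of 1.04, and 259 transcripts under 1 early CPM whose higher count was 8 or 9 had 0.93. No break in the ratio was seen at any of these limits.

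Under the minimum of 10 counts in at least 1 dome library, the dome ratio of new transcripts differed with their detection before dome. Of the 1871, 1222 had at least 1 count at 64-cell or 256-cell, and their median log2 ratio at dome was 1.18. A level under 1 CPM is therefore not the same as absence from the egg. The 113 first seen at 1000-cell, with 5 or more counts there and none before, had a median of 1.32, and the 93 with 1 to 4 counts there and none before had 1.45. The 443 with no early count had 1.95. In the last set 171 transcripts had 0 cytosolic counts at dome, and the median counts were 24 nuclear and 5 cytosolic. With 10 or more counts in both dome libraries, the set with no early count no longer stood apart. The medians were then 0.80 (562 transcripts), 1.07 (60), 0.83 (34) and 0.83 (142) for the same sets. Transcripts with fewer than 10 cytosolic counts, and so many large nuclear ratios, are removed by this filter. It therefore cannot show whether the sets differ.

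A second split used the change from the early stages to shield, which also leaves out the dome libraries. It set the mean CPM of both shield libraries against the early mean, with 0.5 CPM added to each. Within the maternal class, 1311 transcripts that were 4-fold or more lower at shield had a median dome log2 ratio of -0.20, and 1832 that lay within 2-fold had -0.01. Maternal transcripts higher at shield had a higher ratio at dome, with 0.20 for 390 that were over 2-fold to 4-fold higher, 0.56 for 187 that were over 4-fold to 16-fold higher and 0.68 for 51 above that. Of those last 51, 15 (29.4%) were 2-fold or more nuclear at dome, against 3.43% of the 1311. At 64-cell the same 51 and 1311 transcripts had medians of 0.08 and 0.04, a smaller gap, and at 1000-cell they had 0.40 and -0.12.

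The middle class showed the same order more widely. Its 423 transcripts that were 4-fold or more lower at shield had a median dome ratio of -0.06, and its 848 within 2-fold had 0.12. The 390 that were over 4-fold to 16-fold higher had 0.88, and the 188 above that had 1.14, with 53.7% of these 188 past 2-fold on the nuclear side. In the new class the medians were 0.91 for 525 transcripts within 2-fold and 1.61 for 386 that were over 16-fold higher. In each class, transcripts that were more abundant at shield than early lay further to the nuclear side at dome. These are descriptions over transcripts of 1 pair of libraries, and the split was chosen after the data had been seen.

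**Figure D4:**
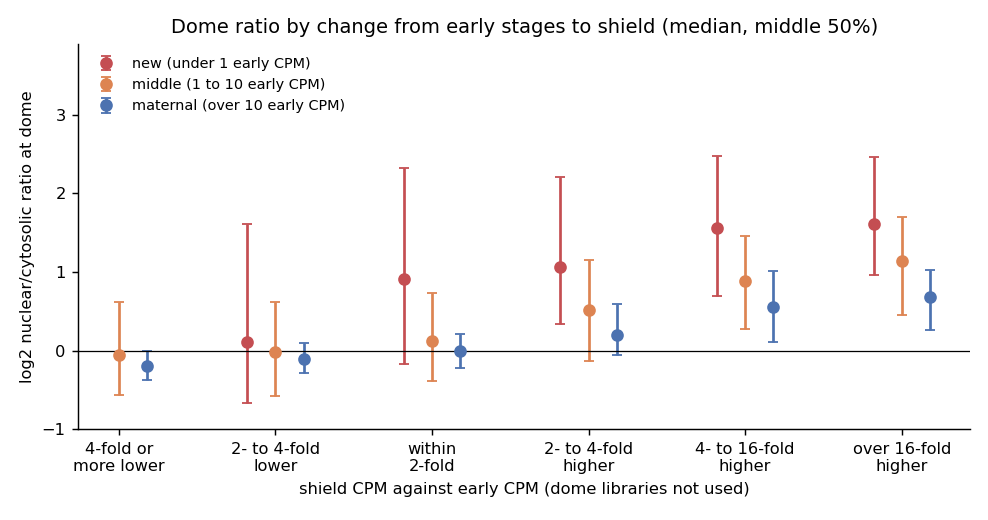
Points are median log2 nuclear/cytosolic ratios at dome (vertical) and bars the middle 50% of transcripts, by the change in CPM from the early stages to shield (horizontal), for the new, middle and maternal classes. Maternal medians run from -0.20 to 0.68 and middle medians from -0.06 to 1.14 across the change.

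Maternal transcripts past 2-fold at dome were few. For both the nuclear and the cytosolic ones, 2-fold ratios in either direction were more frequent at each early stage than in the whole maternal class. At dome 8.94% of the maternal class was past 2-fold in either direction, close to the 7.54% at 64-cell, 9.54% at 256-cell and 10.1% at 1000-cell, whereas 43.5% was past it at shield. Over all transcripts with 10 or more counts in a library of these 3 stages, in order, 8.93%, 12.7% and 12.9% were 2-fold nuclear and 11.4%, 9.17% and 9.98% were 2-fold cytosolic. Of the 250 that were 2-fold or more nuclear at dome, 106 (42.4%) were 2-fold or more cytosolic at 1 or more of the other 4 stages, against 35.3% of the whole maternal class, and 9 were 2-fold or more nuclear at all 4. Of the 168 that were 2-fold or more cytosolic at dome, 87 (51.8%) were 2-fold or more nuclear elsewhere, against 21.8% of the class, and 1 was cytosolic at all 4. Shield weighs on these shares, since 29.7% of the maternal transcripts counted there were 2-fold cytosolic and 13.7% nuclear (16.7% and 21.7% with library totals). The shares over the other 4 stages were taken with TMM scaling alone. At 64-cell, 18.8% of the 250 were 2-fold or more nuclear and 16.4% cytosolic, against 3.89% and 3.74% of the whole maternal class. At 256-cell the shares of the 250 were 21.6% and 12.4%, against 5.94% and 3.57%. At 1000-cell they were 22.4% and 17.2%, against 5.88% and 4.34%. The 168 also exceeded the class, with 13.1% nuclear and 15.5% cytosolic at 64-cell. Their shares were 15.5% and 16.7% at 256-cell and 16.1% and 19.6% at 1000-cell. How reads were divided among transcript models of 1 gene is not given in the sources used here, and its part in these changes was not tested.

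At shield the new class was again on the nuclear side. Of its 1871 transcripts, 1302 had 10 or more counts in at least 1 shield library, and their median log2 ratio there was 2.18, with 69.4% nuclear and 6.30% cytosolic past 2-fold. Over all 8723 transcripts with such counts at shield, 34.5% were nuclear and 21.8% cytosolic past 2-fold. New transcripts that were 2-fold or more nuclear at dome were nuclear 2-fold at shield in 640 of 838 cases (76.4%). This was not far above the 69.4% of the whole new class, and it was 58.7% for new transcripts within 2-fold at dome. Those that were 2-fold or more cytosolic at dome were cytosolic 2-fold at shield in 16 of 67 cases (23.9%) and nuclear 2-fold in 31; the other 86 of the 153 had too few counts at shield. The 23.9% was above the 6.30% of the whole new class. It was 44.4% among transcripts with 50 or more counts in a dome library. That filter left 28 cytosolic new transcripts before the minimum at shield was applied, so the value rests on few.

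The maternal class at shield depended on the scaling. Its median log2 ratio was -0.46 with TMM scaling and 0.02 with library totals, so its sign changed with the scaling. The new median exceeded the maternal one by 2.64 with TMM scaling and by 2.54 with library totals. Of maternal transcripts past 2-fold on the nuclear side at dome, 110 of 232 (47.4%) were also nuclear 2-fold at shield, against 13.7% of the 4502 maternal transcripts counted there. Of those on the cytosolic side at dome, 58 of 148 (39.2%) were cytosolic 2-fold at shield, against 29.7%. With library totals the nuclear shares were 56.7%, against 21.7% of the class, and the cytosolic shares 29.1%, against 16.7%.

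**Figure D5:**
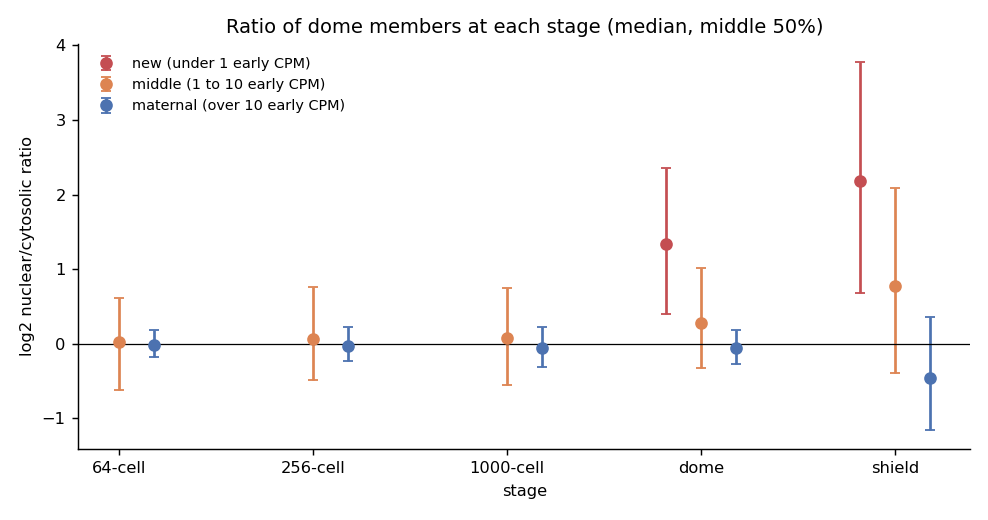
Points are median log2 nuclear/cytosolic ratios (vertical, TMM scaling) and bars the middle 50% of dome transcripts with 10 or more counts in at least 1 library of the stage (horizontal); the new class is drawn at dome and shield alone, since low counts chose it at the early stages. New transcripts stand at 1.34 at dome and 2.18 at shield, and the maternal value of -0.46 at shield is 0.02 with library totals.

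By a rule that asked for 100 or more counts in the higher and 10 or more in the lower dome library, 1 transcript was named per side in the new and in the maternal class. The ranking leaves out transcripts with fewer than 10 counts in the lower library, some of which were at 0 there and had larger leads. ENSDART00000146148 came first by this rule among new transcripts on the nuclear side. It had 647 nuclear and 10 cytosolic counts at dome, which is 48.7 and 0.863 CPM. Its log2 ratio was 5.52, and an exact binomial interval for the ratio of the scaled counts, covering counting error only, ran from 4.93 to 6.89. It had 2 nuclear and 7 cytosolic counts at 64-cell, 11 and 9 at 256-cell, and 10 and 9 at 1000-cell. At shield it had 119 nuclear and 9 cytosolic counts, a log2 ratio of 3.52. The nuclear lead was present in both late pairs, and the cytosolic counts stayed at 7 to 10 in all 5 cytosolic libraries.

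ENSDART00000150548 came first among new transcripts on the cytosolic side, of those with 10 or more counts in the nuclear library. It had 19 nuclear and 369 cytosolic counts at dome, a log2 ratio of -4.29 with a counting interval from -5.22 to -3.81. All 6 early libraries had 0 counts of it. At shield it had 28 nuclear and 50 cytosolic counts, a log2 ratio of -0.85. Both late pairs had more of it in the cytosolic library, with a smaller gap at shield. The shield ratio rests on few counts and has no interval here. Scaling by library totals would shift it by 0.48 toward the nuclear side.

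Among maternal transcripts with 10 or more counts in the lower dome library, ENSDART00000129632 came first on the nuclear side. Its dome counts were 15255 nuclear and 79 cytosolic, a log2 ratio of 7.36 with a counting interval from 7.08 to 7.74. It had 12799 nuclear and 23308 cytosolic counts at 64-cell, 10423 and 15920 at 256-cell, 45 and 21206 at 1000-cell, and 54 and 26 at shield. The ratio at 1000-cell was -8.17 on the log2 scale, so the fraction with few counts changed from the nuclear to the cytosolic one between 1000-cell and dome. By the same limit ENSDART00000146596 came first on the cytosolic side, with 19 nuclear and 13368 cytosolic counts at dome. Its log2 ratio was -9.46, with a counting interval from -10.38 to -9.01. It had 6423 nuclear and 15828 cytosolic counts at 64-cell, 64 and 6064 at 256-cell, 3 and 0 at 1000-cell, and 6648 and 12 at shield. Both maternal transcripts had many counts in some libraries and few in others of either fraction, and the side with few counts differed between stages.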

How the data were processed

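Total RNA libraries, stranded and depleted of ribosomal RNA per the labels' protocols, covered 2 fractions at 5 stages, which follow the sample titles (the labels' growth protocol does not list dome). The authors deposited 1 table of whole-number counts per Ensembl transcript ID, with 16383 rows and 10 columns; 0 per-sample columns were left unmatched. The submitters' processing notes name Trimmomatic 0.27, STAR 2.6.0a, StringTie and the genome build Zv9, with no roles. The annotation release, the strand setting and the rule for dividing reads among models of a gene are not given in the sources used here. The counts were treated as raw read counts. They are whole and column totals differ, but this does not settle whether they are read counts or estimates. The counting intervals assume read counts.

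Ratios are differences of log2 CPM after TMM scaling over all 10 libraries (edgeR 4.0.16, R 4.3.3, on 9568 transcripts with 10 or more counts in at least 2 libraries), with a prior count of 2. Classes used CPM from column totals. With 1 library per fraction at dome no test was run; a comparison of the fractions over all 5 stages was not made here. The intervals printed for shares of library counts and for single transcripts, and the floor of 3 counts, cover counting error only. The ratio code was tested on simulated data. Size factors of DESeq2 1.42.0, other priors, filters, class limits and depths were alternatives. Python 3.11.15, NumPy 2.4.6, pandas 2.3.3, SciPy 1.17.1 and matplotlib 3.10.9 were used. Members and lists were chosen with earlier results of these data known. Gene lists, markers and sequences were not used here, because 0 IDs matched the gene name tables, and so at most 2 IDs per side are named, by the largest ratio in the new and in the maternal class among transcripts with 100 or more counts in the higher and 10 or more in the lower dome library.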

Additional observations from a re-analysis of the deposited data

Results flagged for a closer look

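ENSDART00000146596 lay on opposite sides at dome and shield. Its log2 nuclear/cytosolic ratio was -9.46 at dome, with 19 nuclear and 13368 cytosolic counts, and 8.94 at shield, with 6648 nuclear and 12 cytosolic counts. With 1 library per fraction and stage the difference was not tested.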

How the results depend on the processing

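No paired analysis was possible because the comparison is of 1 nuclear with 1 cytosolic library at dome, and the labels number no replicates. The direction of each class median held under the 15 alternatives, with the new median from 0.80 to 1.67, the maternal median from -0.10 to -0.04 and their difference from 0.86 to 1.73. The counts of transcripts past 2-fold moved with the filter, the fold limit and the class limits, and 1 alternative (20 counts summed over both dome columns) was chosen after seeing the data.

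By the main rule, 59.7% of 1871 new transcripts were nuclear and 8.18% cytosolic past 2-fold. With 50 or more counts in a dome column, 1119 transcripts were nuclear and 304 cytosolic in all. In the new class 392 (73.5% of 533) were nuclear and 28 (5.25%) cytosolic, and 109 (7.27% of 1499) were cytosolic in the middle class. The new median was 1.67, the middle median 0.49 and the difference 1.73. With 10 counts in both columns the numbers were 1038 (13.7% of 7598) and 285 (3.75%) in all. They were 353 (44.2% of 798) and 18 (2.26%) new and 127 (5.81% of 2187) cytosolic middle. The new median was 0.85 and the difference 0.91. With 1 count in either column they were 1710 (46.2% of 3698) and 341 (9.22%) new, with a median of 0.80 and a difference of 0.86. The added filter gave 82 (5.77% of 1420) cytosolic new transcripts and a new median of 1.25. A 4-fold limit left 982 (10.7% of 9137) and 264 (2.89%) in all, and 637 (34.0%) and 87 (4.65%) new. It left 256 (9.89%) and 102 (3.94%) middle, and 89 (1.9%) and 75 (1.6%) maternal.

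A prior count of 0.5 gave a new median of 1.49 and a difference of 1.55, and a prior count of 5 gave 1.11 and 1.17. The maternal median was -0.10 with TMM within the pair and -0.07 with DESeq2 size factors.

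Classes from the highest early CPM gave 744 (65.4% of 1137) nuclear and 79 (6.95%) cytosolic new transcripts. They gave 406 (7.67% of 5293) nuclear maternal ones, and medians of 1.59 (new), 0.45 (middle) and -0.05 (maternal). The difference was 1.63, and the new class held 0.455% of nuclear and 0.187% of cytosolic counts. Limits of 0.5 and 5 CPM gave 96 (7.14% of 1345) cytosolic new and 418 (7.65% of 5461) nuclear maternal transcripts, with medians of 1.57, 0.44 and -0.04. The difference was 1.61 and the shares of counts 0.647% and 0.259%. Limits of 2 and 20 CPM gave 246 (9.52% of 2585) and 145 (3.66% of 3957), with medians of 1.06, 0.20 and -0.08. The difference was 1.14 and the shares of counts 1.44% and 0.698%. The new shares were 1.47% and 0.833% with classes from 64-cell and 256-cell, 1.58% and 0.768% with classes from the early cytosolic libraries, and 0.967% and 0.433% without the 10 most abundant transcripts. Of nuclear 2-fold new transcripts, 83.2% were nuclear 2-fold at shield with library totals and 81.0% with classes from the highest early CPM, against 76.4%. Of cytosolic 2-fold new transcripts, 44.4% were cytosolic 2-fold at shield with 50 or more counts in a dome column, against 23.9%. That filter left 28 such transcripts before the minimum at shield. The shares of the middle class ran from 1.96 to 4.60% nuclear and 1.16 to 3.08% cytosolic over the class alternatives. Except where a filter or limit by its construction changes how many transcripts are counted, the cause was not tested. Of 204 recomputed medians, shares and counts of this kind, the 136 not listed stayed within their interval or within 1.5 times. For the remaining quantities, 79 of 110 did so. For medians, their difference and shares at shield, this interval was taken over transcripts, which are not replicates of a condition. It served only to choose what to list.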

Other observations

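Across transcripts counted at shield, the dome ratio and the shield ratio were weakly related in each class. Pearson's r was 0.262 (Spearman's rho 0.266) over 1302 new transcripts, 0.185 (0.223) over 1939 middle ones and 0.139 (0.185) over 4502 maternal ones. The points share their libraries and low counts, and transcripts are not independent replicates.

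In the middle class the ratio was higher among transcripts with more dome counts. The median log2 ratio was 0.10 for 676 transcripts with 10 to under 50 summed counts, 0.15 for 1298 with 50 to under 200, 0.77 for 528 with 200 to under 1000 and 0.92 for 87 with 1000 or more. Of those 87, 40 were 2-fold or more nuclear and 1 was 2-fold or more cytosolic. The bins sum the same dome columns that give the ratio. As the class has at most 10 mean early CPM, its highest bin holds transcripts with a higher level at dome than before. The part of counting depth in this order was not tested. In the new class the median was lowest, at 1.24, with the fewest counts, and 1.50, 1.46 and 1.46 in the next bins in order. In the maternal class the medians were 0.40 (15 transcripts), -0.08 (168), -0.02 (1380) and -0.07 (3114) from the fewest to the most counts.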
